A study of Saccharomyces cerevisiae with 18 samples.

Results

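Transcripts of 35 heat shock proteins and chaperones were followed across 3 yeast strains and 2 media. The members are the genes whose symbol in the count table matches a list of cytosolic and mitochondrial chaperones, co-chaperones and heat shock genes. All 35 listed symbols were found among the 7126 genes of the table, and all 35 passed the filter on low counts that left 6239 genes to be tested. Messenger RNA came from 3 replicate cultures each of *hcm1-3N*, *hcm1-8E* and WT in LiCl and in control medium, 18 libraries in 6 groups. Hcm1 is a forkhead transcription factor of S phase. Hcm1-3N lacks the phosphorylation sites that lead to its degradation, and Hcm1-8E has acidic residues in place of the cyclin-dependent kinase sites of its transactivation domain.

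Every group shared one haploid background, MATa his3delta1 ura3delta0 leu2delta0 lys2delta0, in BY4741. Every group also carried a tagged chromosomal *HCM1* behind the *GAL1* promoter (HIS3MX6-GAL1p-HCM1-3HA-KanMX), which dextrose shuts off, and a Hyg-TEFp-GFP cassette in chromosome VI. The groups therefore differ in the allele on a centromeric pRS316 plasmid, where the *HCM1* promoter drives hcm1-3N, hcm1-8E or WT *HCM1* with a 3V5 tag, and in the medium. The medium was synthetic, without uracil, with 150 mM LiCl or with no LiCl. Cultures were diluted at 24 hours and collected at 40 hours in logarithmic growth.

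Chaperones bind unfolded proteins and help them fold, keep them soluble or pull them out of aggregates. In yeast, Hsp70 proteins work with J proteins, which deliver clients and stimulate the ATPase, and with exchange factors, which release the nucleotide; Hsp90 works with its own co-chaperones on clients such as kinases; and Hsp104 threads aggregated proteins apart. The heat shock factor Hsf1 binds heat shock elements in many of these promoters, and Msn2 and Msn4 bind stress response elements in a broader set of stress genes.

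Library totals lay between 18816441 and 21851012 counts, with a median of 21695332. Values below are CPM, counts scaled to a common library size with TMM factors, and genes are compared with each other only in TPM, which the authors divided by gene length. The mating type markers fitted the label MATa, with *MFA1*, *MFA2*, *STE2*, *STE6* and *BAR1* between 91.7 and 1110 CPM and the MATalpha genes between 0.467 and 24.7 CPM, and *LEU2* and *LYS2* were at 0 in all 18 libraries. The series describes biological triplicates, and the p-values measure the spread between these samples. In bulk RNA, fewer cells that express a gene and less RNA per cell cannot be told apart. One feature of the libraries precedes all results: replicate 1 stood apart from replicates 2 and 3 in LiCl in all 3 strains, and did so strongly for a subset of the members.

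Promoter sequence is shown for *HSP42*, *HSP104* and *HSP78*, which have the widest spread over libraries of the members with both elements. It is also shown for *HSP12*, with stress response elements alone, and *SSB1*, with neither. The examples were thus picked by spread and by element together. Other members with a wide spread are not shown. *HSP30* (82.4-fold between libraries) and *BTN2* (13.7-fold) held neither element, and *HSP82* (12.6-fold) held a stress response element alone. Each line runs 5′ to 3′ over 180 bases of the RefSeq genome in build R64, from base 300 to base 121 before the start codon. Capitals mark matches to the heat shock element or to the stress response element. The heat shock element was searched as 3 alternating units of GAA and TTC in either order, each separated by 2 bases of any kind, and the stress response element as AGGGG or CCCCT, which covers both strands. By their letters the motifs can share at most 1 base, at an end of the heat shock element.
HSP42: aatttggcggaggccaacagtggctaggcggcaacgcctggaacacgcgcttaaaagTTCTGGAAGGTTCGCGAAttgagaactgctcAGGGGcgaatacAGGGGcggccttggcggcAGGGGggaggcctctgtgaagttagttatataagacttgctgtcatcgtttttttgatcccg
HSP104: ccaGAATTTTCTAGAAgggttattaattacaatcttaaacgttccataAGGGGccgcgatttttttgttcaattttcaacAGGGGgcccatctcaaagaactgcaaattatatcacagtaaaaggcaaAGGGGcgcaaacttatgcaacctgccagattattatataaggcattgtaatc
HSP78: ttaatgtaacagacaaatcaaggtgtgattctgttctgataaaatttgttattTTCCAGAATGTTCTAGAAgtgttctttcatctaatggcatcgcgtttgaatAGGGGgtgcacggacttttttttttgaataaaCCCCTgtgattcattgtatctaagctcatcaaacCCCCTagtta
HSP12: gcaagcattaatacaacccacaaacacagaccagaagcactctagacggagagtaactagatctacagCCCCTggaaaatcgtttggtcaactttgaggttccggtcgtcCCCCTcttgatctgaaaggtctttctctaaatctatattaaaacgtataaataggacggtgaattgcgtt
SSB1: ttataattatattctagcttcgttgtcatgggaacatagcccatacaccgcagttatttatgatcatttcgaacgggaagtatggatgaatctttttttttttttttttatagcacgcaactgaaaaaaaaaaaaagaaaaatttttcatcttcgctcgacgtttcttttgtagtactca
The windows lie at chrIV:806321-806500 on the plus strand, chrXII:88323-88502 on the plus strand, chrIV:974364-974543 on the minus strand, chrVI:106956-107135 on the plus strand and chrIV:43765-43944 on the plus strand. Over the full 300 bases before the start codon, 10 of 35 members held a heat shock element, against 0.867% of 6001 promoters, and 11 of 35 held a stress response element, against 22.2%. Both were present in 4 members, *HSP42*, *HSP104*, *SSA1* and *HSP78*. A match is a description of the letters, and no match says only that these letters were absent from the window.

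The members differed widely in how much they varied. Between the lowest and the highest library the level differed at least 10-fold for 6 of 35 members (*HSP30*, *HSP42*, *HSP104*, *BTN2*, *HSP82* and *HSP78*), against 4.1% of all genes tested. It differed at most 2-fold for 15 of 35 members, against 50.7% of all genes. *HSP30* had the widest range of the members, 9.19 to 757 CPM, and *HSP10*, the co-chaperonin of Hsp60, had the narrowest, 120 to 152 CPM.

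**Figure D1:**
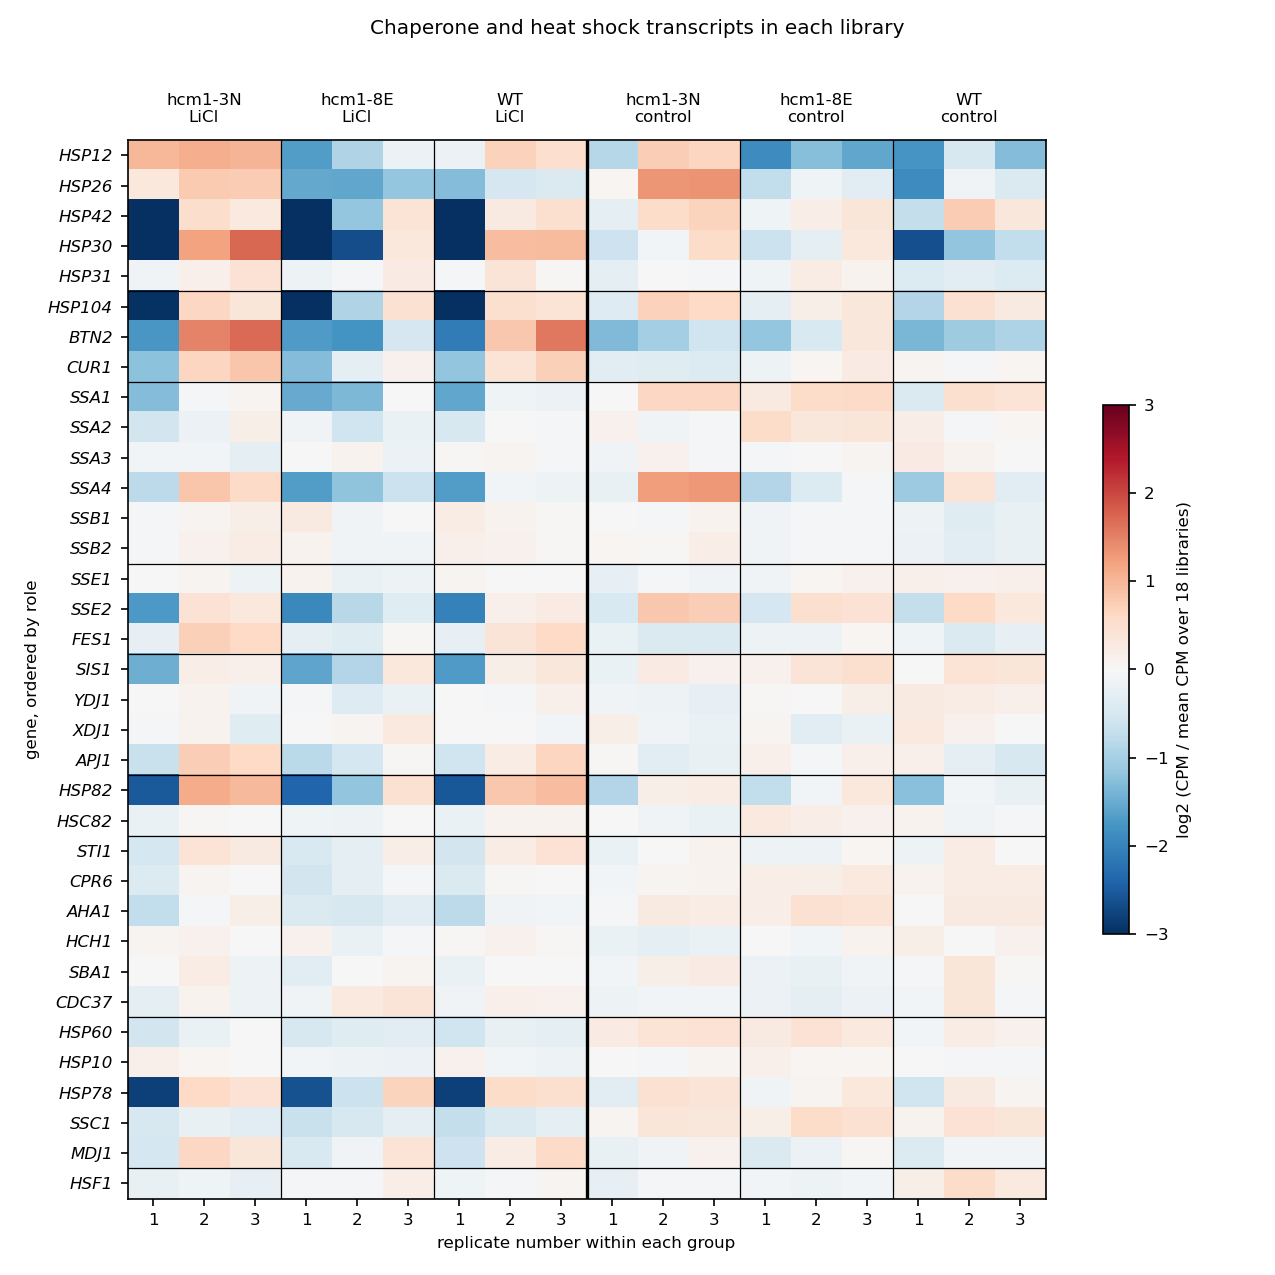
Level of each of the 35 members (rows, ordered by role) in each of the 18 libraries (columns, replicates 1 to 3 within each group), as log2 of CPM over the mean CPM of that gene over all libraries, with colours ending at -3 and 3. Dark blue cells stand in the columns of replicate 1 in LiCl, for *HSP42*, *HSP30*, *HSP104*, *HSP78* and *HSP82*. *HSP30* is also dark blue in replicate 2 of *hcm1-8E* in LiCl (36.4 CPM) and in replicate 1 of WT in control medium (36.9 CPM).

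The genes of the disaggregase, the small heat shock protein Hsp42 and mitochondrial Hsp78 shared a low replicate 1 in LiCl and an intermediate replicate 2 of *hcm1-8E* in LiCl. *HSP42*, which gathers misfolded proteins into aggregates, had 16.9, 322 and 275 CPM in *hcm1-3N* in LiCl, 9.85, 100 and 297 CPM in *hcm1-8E* in LiCl, and 12.2, 269 and 311 CPM in WT in LiCl, in the order of replicates 1, 2 and 3. In control medium the *hcm1-3N* cultures had 185, 327 and 357 CPM, the *hcm1-8E* cultures 203, 256 and 286 CPM, and the WT cultures 136, 376 and 284 CPM. Replicate 1 in LiCl was far below every other library in each strain, replicate 2 of *hcm1-8E* lay between, and the remaining LiCl libraries lay within the range of the control libraries. *HSP104*, which encodes the disaggregase, had 87, 1050 and 877 CPM in *hcm1-3N* in LiCl, 57.5, 362 and 934 CPM in *hcm1-8E* in LiCl, and 65.1, 944 and 904 CPM in WT in LiCl, against 521 to 1100, 564 to 855 and 372 to 928 CPM in the same strains in control medium. *HSP78*, the mitochondrial relative of *HSP104*, had 18.3, 193 and 171 CPM in *hcm1-3N* in LiCl, 20.8, 80.6 and 200 CPM in *hcm1-8E* in LiCl, and 18.3, 185 and 177 CPM in WT in LiCl, against 101 to 173, 117 to 157 and 83.7 to 152 CPM in control medium. Both repeated these features of *HSP42*: replicate 1 lowest by a wide margin in LiCl, and replicate 2 of *hcm1-8E* in between. These genes, together with *HSP82*, *BTN2*, *HSP30*, *SSE2*, *SIS1*, *SSA1* and *HSP26*, were singled out after their values were seen.

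Replicate 1 of *HSP42* in LiCl was 17.7-fold below the mean of replicates 2 and 3 in *hcm1-3N*, 20.1-fold below in *hcm1-8E* and 23.8-fold below in WT. In control medium the same ratios were 1.85, 1.33 and 2.43. *HSP30*, a plasma membrane heat shock protein, had the largest gaps of the members in LiCl in *hcm1-3N* and WT, 32.2-fold and 47.9-fold, beside 12.8-fold in *hcm1-8E*. Replicate 1 was at most 1/4 of the mean of replicates 2 and 3 in all 3 LiCl groups for 5 of 35 members (*HSP42*, *HSP30*, *HSP104*, *HSP82* and *HSP78*), against 1.22% of all genes. It was at most 1/2 in all 3 LiCl groups for 8 of 35, adding *CUR1*, *SSE2* and *SIS1*, against 4.76% of all genes, and in all 3 control groups for 0 of 35, against 0.577%. Replicate 1 was the lowest of the 3 in all 3 LiCl groups for 19 of 35 members, against 27.8% of all genes, and in all 3 control groups for 17 of 35, against 23.9%. For some members the shift was larger in control medium: in *hcm1-3N* the log2 ratio of *HSP12* was -0.07 in LiCl and -1.55 in control medium, and that of *HSP26* was -0.44 in LiCl and -1.28 in control medium.

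Other genes moved with replicate 1. All 15 of 15 general stress genes of the Msn2 and Msn4 type, such as *CTT1* (catalase) and *TSL1* (a trehalose synthase subunit), were lowest in replicate 1 in all 3 LiCl groups and in all 3 control groups. Their median log2 ratio of replicate 1 to the mean of replicates 2 and 3 in LiCl was -3.37 in *hcm1-3N*, -3.80 in *hcm1-8E* and -3.45 in WT. The medians over the 35 members were -0.45, -0.37 and -0.69, and those over all genes tested lay between -0.01 and 0.02. Of 40 other chaperones, such as the CCT chaperonin and prefoldin subunits, 0 were lowest in replicate 1 in all 3 LiCl groups and 21 were highest, against 1 of 35 members (*HSP10*) and 28% of all genes highest. The list of stress genes moves with a subset of the members in these libraries, and its part in the result was not tested.

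**Figure D2:**
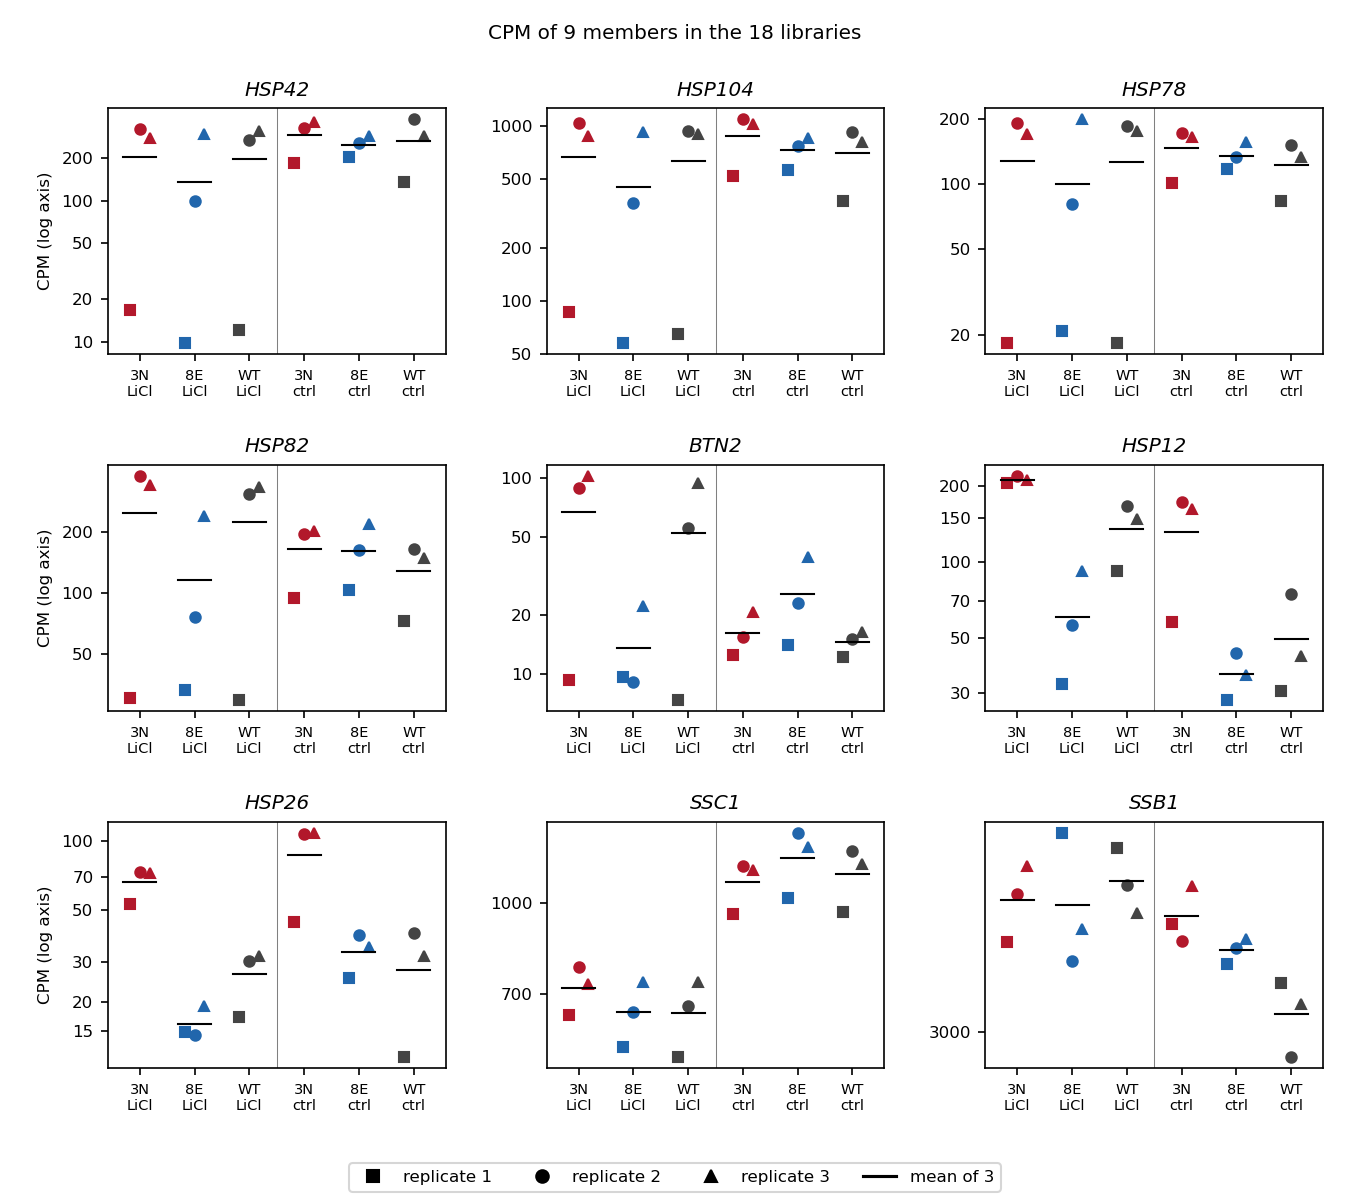
CPM (log axis) of 9 members in each library, with the LiCl groups left of the control groups, replicate 1 as squares, replicate 2 as circles, replicate 3 as triangles and a line at the mean of 3. The squares of *HSP42*, *HSP104*, *HSP78* and *HSP82* in LiCl lie far below the other symbols, and all LiCl symbols of *SSC1* lie below all its control symbols.

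*HSF1*, which encodes the heat shock factor, did not share the wide gap of replicate 1 in LiCl. It had 41.5, 44.3 and 40.3 CPM in *hcm1-3N* in LiCl, 46.9, 46.6 and 55 CPM in *hcm1-8E* in LiCl, and 43.9, 46.7 and 50.7 CPM in WT in LiCl. In control medium the *hcm1-3N* cultures had 40.8, 47.1 and 45.9 CPM, the *hcm1-8E* cultures 45.1, 43.1 and 45.2 CPM, and the WT cultures 54.4, 70.1 and 58.7 CPM. The 3 WT control libraries were above every other library except replicate 3 of *hcm1-8E* in LiCl, which was above 1 of them. Grouped by promoter elements, the log2 shift of replicate 1 in LiCl (each gene's median over 3 strains) had a median of -3.40 for the 4 members with both elements, -0.41 for 6 with a heat shock element alone, -0.77 for 7 with a stress response element alone and -0.35 for 18 with neither. The ranges overlapped, since *HSP30* (-5.01) held neither element, *HSP82* (-3.43) a stress response element alone, and *SSA1* (-1.32) both. The classes rest on exact matches to the letters searched. *HSP42*, *HSP104* and *HSP78*, which held both, were singled out after their values were seen. These medians are a description, and a link between elements and shift was not tested. The general stress genes held a stress response element in 12 of 15 and a heat shock element in 0 of 15.

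**Figure D3:**
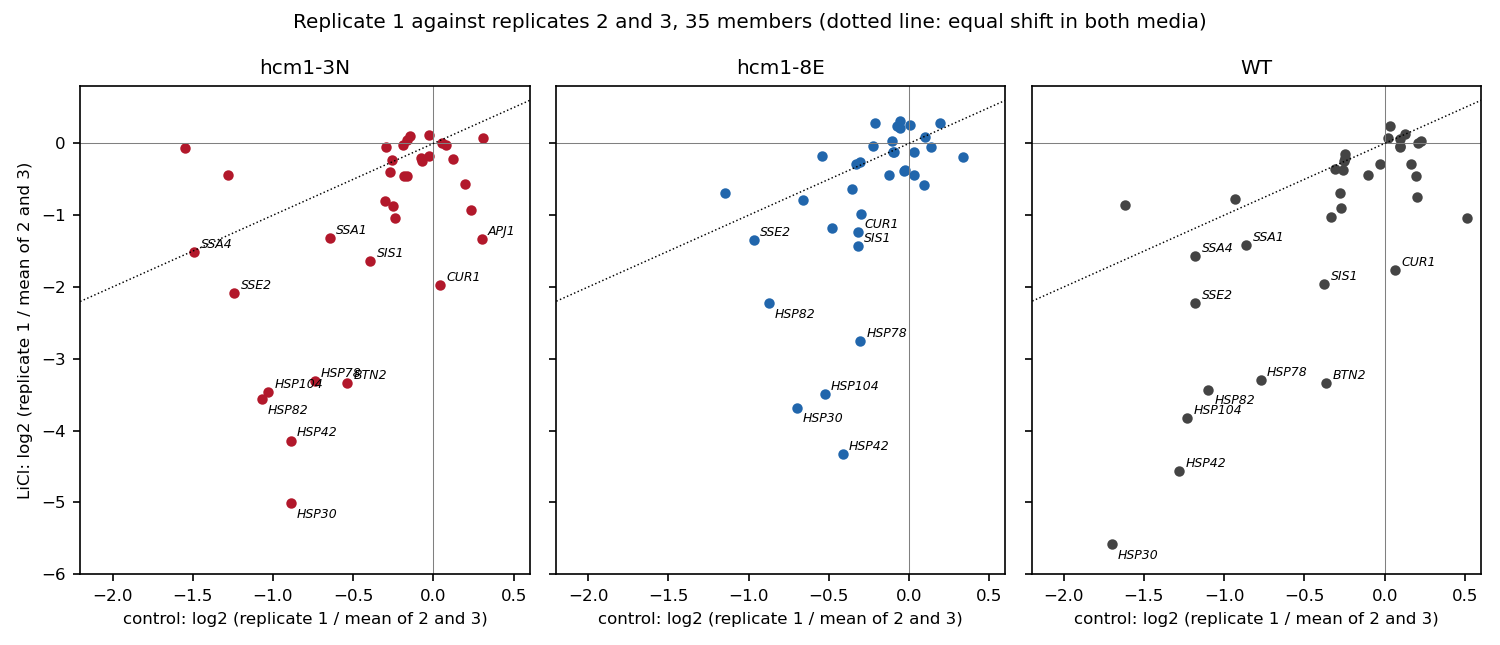
Log2 ratio of replicate 1 to the mean of replicates 2 and 3 in LiCl (vertical) against the same ratio in control medium (horizontal) for the 35 members in each strain, with a dotted line where both are equal. *HSP42*, *HSP30*, *HSP104*, *HSP82* and *HSP78* lie well below the line in all 3 strains, and *BTN2* does so in *hcm1-3N* and WT.

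LiCl against control was compared within each strain, to ask which chaperones differed after long growth in the salt. A member was counted when its Benjamini-Hochberg adjusted p from edgeR's quasi-likelihood test, over all 6239 genes, was under 0.05. In *hcm1-3N*, 2 of 35 members rose (5.16% of all genes rose) and 2 fell (5.18% of all genes fell). In *hcm1-8E*, 1 rose (17.1% of all genes) and 7 fell (12.5%). In WT, 4 rose (16.5%) and 3 fell (13.9%). The median log2 fold change over the members was 0.01 in *hcm1-3N*, -0.43 in *hcm1-8E* and -0.07 in WT, beside 0.01, 0.03 and 0.02 over all genes tested, and 27 of 35 members had a negative fold change in *hcm1-8E*. Members share libraries, so their signs are not independent, and the signs of all genes were not counted. With a replicate block, which takes the replicate number as a term, more members fell: 4 of 35 in *hcm1-3N* (18% of all genes), 12 of 35 in *hcm1-8E* (21.7%) and 6 of 35 in WT (23%). With replicates 2 and 3 alone, an alternative chosen after seeing the data, 6 rose and 4 fell in *hcm1-3N* (14.8% and 16.3% of genes), 3 rose and 13 fell in *hcm1-8E* (24.2% and 23.2%), and 9 rose and 4 fell in WT (23.2% and 24.8%).

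The mitochondrial Hsp70 and the mitochondrial chaperonin fell in all 3 strains. *SSC1*, the Hsp70 that pulls proteins into the mitochondrial matrix, had 643, 777 and 729 CPM in *hcm1-3N* in LiCl, against 959, 1160 and 1140 CPM in control medium. In *hcm1-8E* it had 568, 652 and 732 CPM in LiCl, against 1020, 1320 and 1250 CPM in control medium, and in WT 546, 667 and 734 CPM in LiCl, against 965, 1230 and 1170 CPM in control medium. The LiCl libraries were below the control libraries in every strain, replicate 1 included, with no overlap, a separation seen in 31.3%, 44.5% and 45.3% of all genes in *hcm1-3N*, *hcm1-8E* and WT. The log2 fold change of *SSC1* was -0.60 (SE 0.14, adjusted p = 0.0177) in *hcm1-3N*, -0.88 (SE 0.14, adjusted p = 0.000607) in *hcm1-8E* and -0.79 (SE 0.14, adjusted p = 0.00102) in WT, by edgeR. In *hcm1-3N* the adjusted p was 0.0668 to 0.072 without LiCl replicate 1, control replicate 2 or control replicate 3. *HSP60*, which folds imported proteins with Hsp10, had 261, 331 and 383 CPM in *hcm1-3N* in LiCl against 451, 505 and 517 CPM in control medium, 276, 295 and 302 CPM in *hcm1-8E* in LiCl against 461, 513 and 471 CPM in control medium, and 251, 330 and 319 CPM in WT in LiCl against 359, 444 and 417 CPM in control medium. Its groups did not overlap in any strain either. *HSP60* changed by -0.60 (SE 0.13, adjusted p = 0.0144), -0.73 (SE 0.13, adjusted p = 0.00144) and -0.44 (SE 0.13, adjusted p = 0.0231) on the log2 scale in *hcm1-3N*, *hcm1-8E* and WT. Its calls were lost in *hcm1-3N* without LiCl replicate 1 or 2 or control replicate 2 or 3 (adjusted p 0.0513 to 0.0629), and in WT without LiCl replicate 1 or control replicate 2 or 3 (0.0674 to 0.0688). The other mitochondrial members did not pass: *HSP10* was at -0.23 in *hcm1-8E* (adjusted p = 0.0511, and 0.0222 with the replicate block), and *MDJ1*, the J protein of Ssc1, lay between 0.18 and 0.33 in the 3 strains.

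**Figure D4:**
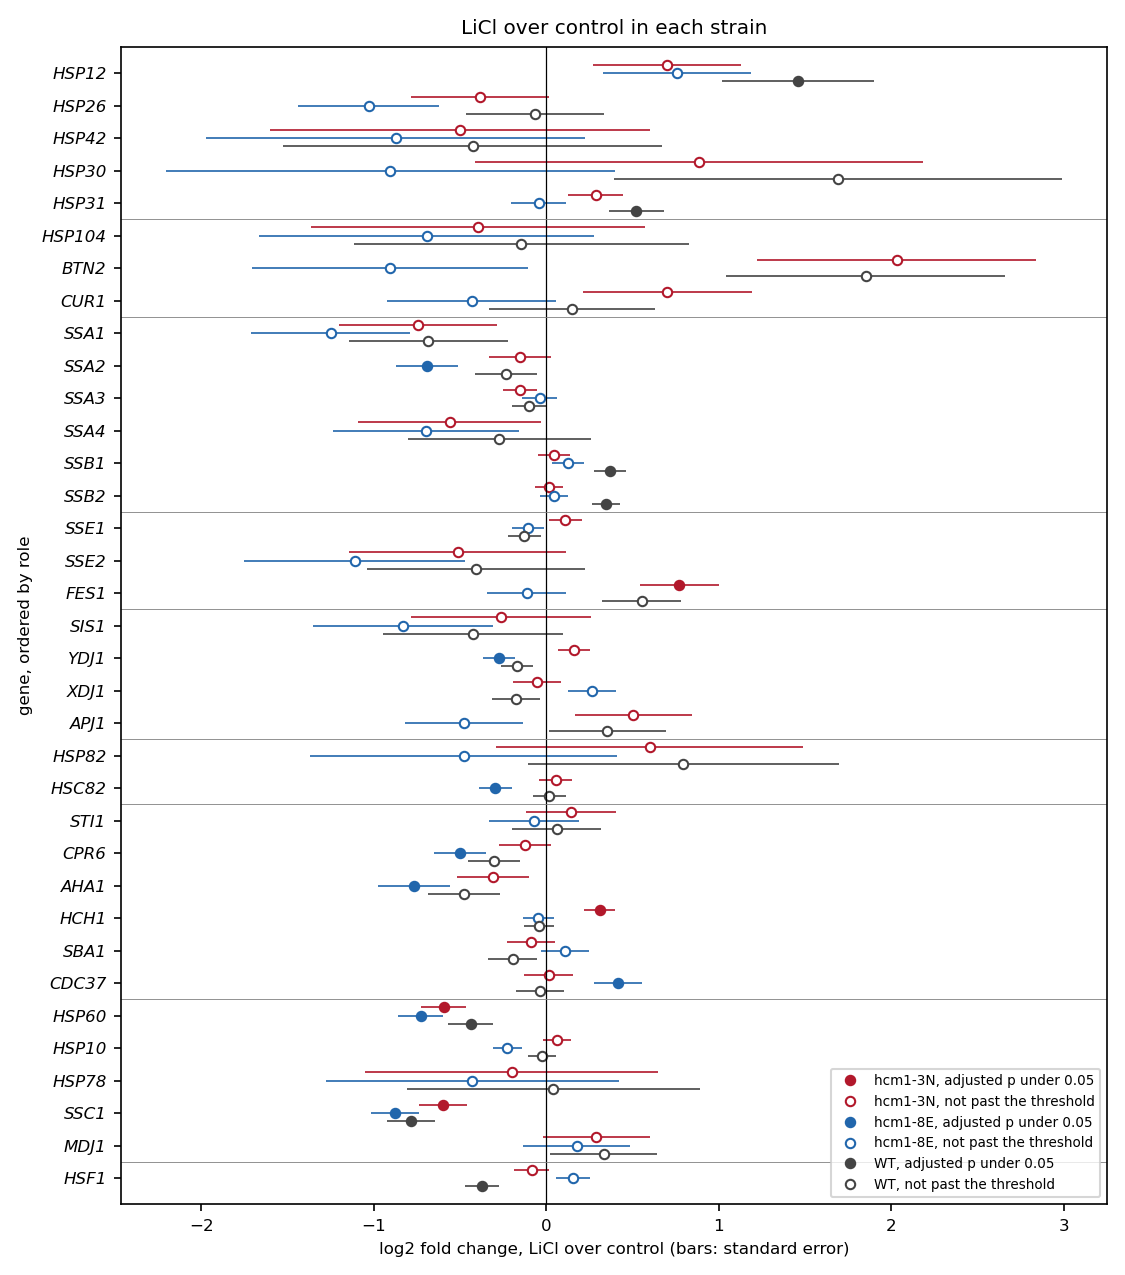
Log2 fold change of LiCl over control (horizontal) for each member in *hcm1-3N*, *hcm1-8E* and WT, with standard errors as bars and filled symbols for an adjusted p under 0.05. *SSC1* and *HSP60* are the members with filled symbols in all 3 strains, and the bars of *HSP42*, *HSP30* and *HSP104* are wide.

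Among the small heat shock and stress proteins, 2 of 5 rose in WT, where 16.5% of all genes rose. In the mutants 0 of 5 passed, against 10.3% of all genes in *hcm1-3N* and 29.5% in *hcm1-8E*. The difference of responses between strains passed for none of them by edgeR over 3 replicates. *HSP12*, a small membrane-associated stress protein, had 206, 220 and 212 CPM in *hcm1-3N* in LiCl against 57.5, 173 and 163 CPM in control medium, 32.7, 55.9 and 92.1 CPM in *hcm1-8E* in LiCl against 28.2, 43.2 and 35.6 CPM in control medium, and 92, 167 and 148 CPM in WT in LiCl against 30.6, 74.6 and 42.3 CPM in control medium. The LiCl libraries were above the control libraries in *hcm1-3N* and WT and overlapped them in *hcm1-8E*. *HSP12* rose by 1.46 on the log2 scale in WT (SE 0.44, adjusted p = 0.021), a call lost without LiCl replicate 2 or 3 or control replicate 1 or 3 (adjusted p 0.0569 to 0.0779). It was 0.70 in *hcm1-3N* (SE 0.43, adjusted p = 0.277, and 0.0394 with the replicate block) and 0.76 in *hcm1-8E* (SE 0.43, adjusted p = 0.206). *HSP31*, a stress-induced methylglyoxalase, had 37.8, 44.8 and 54.8 CPM in *hcm1-3N* in LiCl against 33, 40.4 and 39.3 CPM in control medium, 36.6, 39.2 and 48.4 CPM in *hcm1-8E* in LiCl against 36.9, 47.2 and 43.9 CPM in control medium, and 39.1, 53.3 and 41.6 CPM in WT in LiCl against 30.7, 32.3 and 30.3 CPM in control medium. The groups were apart in WT and overlapped in both mutants. *HSP31* rose by 0.52 in WT (SE 0.16, adjusted p = 0.0218), and not without LiCl replicate 2 or any single control replicate (0.0558 to 0.103). *HSP26* was at -1.03 in *hcm1-8E* (SE 0.41, adjusted p = 0.0704, and 0.00546 with the replicate block), with 14.8, 14.4 and 19.2 CPM in LiCl, all below 25.4, 39.2 and 34.5 CPM in control medium. *HSP42* and *HSP30* had fold changes between -0.91 and 1.69 with standard errors of 1.1 to 1.3, and neither passed in any strain. In *hcm1-8E*, *HSP42* was at -0.87, at -1.77 with the replicate block and at -2.19 without LiCl replicate 3, and *HSP30* was at -0.91, at -1.89 with the block and at -3.1 without that library.

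Among the 6 cytosolic Hsp70 genes, *SSB1* and *SSB2* rose in WT and *SSA2* fell in *hcm1-8E*. Ssb1 and Ssb2 sit on ribosomes and receive new chains, while Ssa1 to Ssa4 serve the cytosol at large. *SSB1* had 3570, 3920 and 4140 CPM in *hcm1-3N* in LiCl against 3700, 3580 and 3980 CPM in control medium, 4410, 3440 and 3660 CPM in *hcm1-8E* in LiCl against 3420, 3530 and 3590 CPM in control medium, and 4280, 3990 and 3780 CPM in WT in LiCl against 3300, 2860 and 3170 CPM in control medium. *SSB2* had 2910, 3240 and 3490 CPM in *hcm1-3N* in LiCl against 3070, 3060 and 3400 CPM in control medium, 3210, 2770 and 2760 CPM in *hcm1-8E* in LiCl against 2750, 2830 and 2880 CPM in control medium, and 3280, 3220 and 3040 CPM in WT in LiCl against 2610, 2360 and 2530 CPM in control medium. The groups were apart in WT and overlapped in both mutants. *SSB1* rose by 0.37 (SE 0.093, adjusted p = 0.00851) and *SSB2* by 0.35 (SE 0.082, adjusted p = 0.00569) in WT. The call of *SSB1* was lost without LiCl replicate 1 (0.0601) or control replicate 2 (0.0697), and that of *SSB2* in none of the 6 fits that each left out a library. In the mutants the fold changes of both lay between 0.01 and 0.13 and did not pass.

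*SSA2*, the constitutive cytosolic Hsp70, fell in *hcm1-8E*. It had 989, 694 and 927 CPM there in LiCl against 1540, 1330 and 1350 CPM in control medium, a log2 fold change of -0.69 (SE 0.18, adjusted p = 0.01). In *hcm1-3N* it had 719, 929 and 1200 CPM in LiCl against 1150, 978 and 1030 CPM in control medium, and in WT 757, 1060 and 1020 CPM in LiCl against 1210, 1020 and 1100 CPM in control medium. The groups were apart in *hcm1-8E* alone, and the values of -0.15 and -0.23 in *hcm1-3N* and WT did not pass. *SSA1*, its near copy, had 331, 787 and 863 CPM in *hcm1-3N* in LiCl against 803, 1260 and 1260 CPM in control medium, 287, 320 and 810 CPM in *hcm1-8E* in LiCl against 975, 1190 and 1220 CPM in control medium, and 276, 750 and 727 CPM in WT in LiCl against 608, 1130 and 1080 CPM in control medium. Every same-numbered pair was lower in LiCl, yet the spread between replicates was wide. The fold changes of *SSA1* were -0.74, -1.25 and -0.68 in *hcm1-3N*, *hcm1-8E* and WT, with adjusted p = 0.28, 0.0551 and 0.278, and 0.0327, 0.00162 and 0.0399 with the replicate block. *SSA4*, the heat-induced member, was at -0.70 in *hcm1-8E* (adjusted p = 0.349, and 0.0259 with the block), and *SSA3* stayed between 17.4 and 25.5 CPM in all libraries.

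The exchange factors and J proteins gave few calls. *FES1*, an exchange factor that releases clients from cytosolic Hsp70 for degradation, had 51.7, 102 and 93.8 CPM in *hcm1-3N* in LiCl against 53.7, 45.4 and 45.9 CPM in control medium, 51.2, 47.8 and 63.3 CPM in *hcm1-8E* in LiCl against 55.8, 55.6 and 64.3 CPM in control medium, and 52.3, 80.7 and 94.2 CPM in WT in LiCl against 56.6, 46 and 52.3 CPM in control medium. Replicates 2 and 3 were high in LiCl in *hcm1-3N* and WT, while replicate 1 was within the control range. *FES1* rose by 0.77 in *hcm1-3N* (SE 0.23, adjusted p = 0.049), a call that held in 1 of 6 fits that each left out a library, the one without LiCl replicate 1, and that was lost with RLE size factors (0.0502) and without the filter on low counts (0.0528). It was at 0.55 in WT (adjusted p = 0.0861, and 0.027 without LiCl replicate 1) and -0.11 in *hcm1-8E*. *SSE2*, an Hsp110, did not pass without the replicate block, and with it was at -0.65 in *hcm1-3N* (adjusted p = 0.0453) and -1.18 in *hcm1-8E* (adjusted p = 0.00142). *YDJ1*, the main cytosolic J protein, had 328, 356 and 308 CPM in *hcm1-3N* in LiCl against 307, 301 and 280 CPM in control medium, 324, 255 and 290 CPM in *hcm1-8E* in LiCl against 338, 337 and 376 CPM in control medium, and 334, 324 and 367 CPM in WT in LiCl against 402, 385 and 367 CPM in control medium. The LiCl libraries were above control in *hcm1-3N* and below it in *hcm1-8E*. *YDJ1* fell by 0.27 on the log2 scale in *hcm1-8E* (SE 0.093, adjusted p = 0.0383), and not without LiCl replicate 2 or 3 or any single control replicate (0.0539 to 0.15) or with scaling to total counts (0.227). The other exchange factor and J proteins passed in no strain: *SSE1*, the main Hsp110, lay between -0.13 and 0.11, *XDJ1* between -0.18 and 0.26, and *SIS1*, an essential J protein, between -0.83 and -0.26.

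Of the 2 Hsp90 genes and 6 co-chaperones, 3 fell and 1 rose in *hcm1-8E*, where 12.5% of all genes fell and 17.1% rose. *HSC82*, the constitutive Hsp90, had 750, 888 and 865 CPM in *hcm1-3N* in LiCl against 850, 806 and 755 CPM in control medium, 792, 775 and 865 CPM in *hcm1-8E* in LiCl against 1060, 983 and 945 CPM in control medium, and 755, 921 and 923 CPM in WT in LiCl against 924, 807 and 839 CPM in control medium. It fell by 0.30 in *hcm1-8E* (SE 0.096, adjusted p = 0.032), and not without LiCl replicate 2 or control replicate 1 or 2 (0.0744 to 0.102) or with scaling to total counts (0.15). *HSP82*, the heat-induced Hsp90, had 30.3, 377 and 341 CPM in *hcm1-3N* in LiCl against 95, 196 and 202 CPM in control medium, 33.5, 76.4 and 239 CPM in *hcm1-8E* in LiCl against 104, 164 and 218 CPM in control medium, and 29.8, 307 and 333 CPM in WT in LiCl against 73.2, 165 and 149 CPM in control medium. In *hcm1-3N* and WT, replicate 1 was below every control library in LiCl and replicates 2 and 3 were above every one, so the fold changes of 0.60 and 0.79 carried standard errors of 0.89 and 0.90 and did not pass.

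*AHA1*, which stimulates the Hsp90 ATPase, had 52.2, 83.9 and 98 CPM in *hcm1-3N* in LiCl against 83.8, 105 and 101 CPM in control medium, 64.4, 62.8 and 69.8 CPM in *hcm1-8E* in LiCl against 100, 119 and 116 CPM in control medium, and 50.8, 81.4 and 83.1 CPM in WT in LiCl against 87.4, 106 and 106 CPM in control medium. It fell by 0.77 in *hcm1-8E* (SE 0.21, adjusted p = 0.0143, and 0.0537 without control replicate 2), and was at -0.48 in WT (adjusted p = 0.1, and 0.00524 with the replicate block). *CPR6*, a cyclophilin bound to Hsp90, had 111, 157 and 147 CPM in *hcm1-3N* in LiCl against 139, 155 and 158 CPM in control medium, 101, 121 and 141 CPM in *hcm1-8E* in LiCl against 169, 166 and 180 CPM in control medium, and 110, 152 and 146 CPM in WT in LiCl against 160, 171 and 172 CPM in control medium. Both genes were lower in LiCl with no overlap in *hcm1-8E* and WT and overlapped in *hcm1-3N*. *CPR6* fell by 0.50 in *hcm1-8E* (SE 0.15, adjusted p = 0.0213), and not without LiCl replicate 1 (0.062) or control replicate 3 (0.0707). It was at -0.30 in WT (adjusted p = 0.137, and 0.0164 with the block).

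*CDC37*, the kinase-specific partner of Hsp90, had 73.8, 94.5 and 79.8 CPM in *hcm1-3N* in LiCl against 79.3, 83.4 and 83.2 CPM in control medium, 82.4, 108 and 116 CPM in *hcm1-8E* in LiCl against 77.7, 73.4 and 78.6 CPM in control medium, and 82, 97.7 and 96.9 CPM in WT in LiCl against 84, 113 and 86.7 CPM in control medium. It rose in *hcm1-8E*, the one strain whose groups were apart, by 0.42 (SE 0.14, adjusted p = 0.038), a call that held in 1 of 6 fits that each left out a library, the one without LiCl replicate 1, and that was lost without the filter on low counts (0.0555). *HCH1*, a relative of Aha1, had 92.9, 96.3 and 88.2 CPM in *hcm1-3N* in LiCl against 76.4, 71.3 and 76.2 CPM in control medium. It rose there by 0.31 (SE 0.089, adjusted p = 0.0414), and of 6 such fits passed in the one without LiCl replicate 3; without the filter on low counts its adjusted p was 0.0578. *STI1* and *SBA1*, which link Hsp70 to Hsp90 and close the Hsp90 clamp, passed in no strain. *HSF1* fell by 0.37 in WT (SE 0.10, adjusted p = 0.0145, and 0.0594 without control replicate 2), and was at -0.09 in *hcm1-3N* and 0.15 in *hcm1-8E*.

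With replicates 2 and 3 alone, *BTN2*, *CUR1*, *FES1*, *APJ1* and *MDJ1* passed in LiCl in both *hcm1-3N* and WT, in a fit where the share of members that rose was near that of all genes, as given above. *BTN2*, a sorting factor for aggregated proteins, had 9.41, 88.7 and 102 CPM in *hcm1-3N* in LiCl against 12.5, 15.5 and 20.8 CPM in control medium, 9.67, 9.16 and 22.2 CPM in *hcm1-8E* in LiCl against 14.1, 23.1 and 39.7 CPM in control medium, and 7.42, 55.7 and 94.2 CPM in WT in LiCl against 12.2, 15.1 and 16.5 CPM in control medium. Replicates 2 and 3 in LiCl were above every control library in *hcm1-3N* and WT, and replicate 1 was below. Over 3 replicates *BTN2* did not pass (log2 fold change 2.03, SE 0.81, adjusted p = 0.109 in *hcm1-3N*, and 1.85, SE 0.81, adjusted p = 0.0995 in WT). Over replicates 2 and 3 it was at 2.38 (adjusted p = 0.00795) in *hcm1-3N*, 2.22 (0.0069) in WT and -1.02 (0.113) in *hcm1-8E*. In the same fit *CUR1*, the paralog of *BTN2*, was at 1.11 in *hcm1-3N* (adjusted p = 7.83e-05) and 0.53 in WT (0.00659), *FES1* at 1.08 (5.07e-05) and 0.80 (0.000196), and *APJ1*, a J protein of the cytosol and nucleus, at 0.92 (0.000845) and 0.79 (0.00141). In *hcm1-8E* these 3 genes were at -0.24, -0.13 and -0.30 and did not pass. *HSP104*, of the same group as *BTN2* and *CUR1*, was at -0.16 and 0.05 and did not pass, and the exchange factor *SSE2* fell in *hcm1-3N* (-0.41, adjusted p = 0.0252). *MDJ1* was at 0.47 in both *hcm1-3N* (adjusted p = 0.0356) and WT (0.0253), beside 0.23 in *hcm1-8E*, which did not pass.

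Whether the response to LiCl differed between strains was tested by the interaction itself. By edgeR over all 3 replicates, 0 of 35 members passed for *hcm1-3N* minus WT, *hcm1-8E* minus WT or *hcm1-3N* minus *hcm1-8E*, beside 0% of all genes in each. At an unadjusted p under 0.05 there were 4, 7 and 7 of 35 members, against 11.3%, 10.3% and 8.99% of all genes. DESeq2 called 0 of 33, 1 of 30 and 0 of 35 members to which it gave an adjusted p, against 3.5%, 2.8% and 0.649% of such genes. The replicate block called 0 of 35 in each, against 0.641%, 0.337% and 0.192% of all genes. The lowest p belonged to *SSB2* for *hcm1-3N* minus WT (-0.33, SE 0.12, adjusted p = 0.266), *HSF1* for *hcm1-8E* minus WT (0.53, SE 0.15, adjusted p = 0.3, and 0.0359 by DESeq2) and *YDJ1* for *hcm1-3N* minus *hcm1-8E* (0.44, SE 0.13, adjusted p = 0.361). With replicates 2 and 3 alone the counts were 0, 8 and 8 of 35, against 0.337%, 5.88% and 9.38% of all genes. In that fit *BTN2*, *CUR1*, *FES1*, *APJ1*, *SSE2* and *SSA2* passed in both interactions with *hcm1-8E*, *HSP26* and *HSF1* (0.62, adjusted p = 0.0424) for *hcm1-8E* minus WT alone, and *AHA1* and *YDJ1* (0.58, adjusted p = 0.0319) for *hcm1-3N* minus *hcm1-8E* alone. The difference of *BTN2* was -3.24 (SE 0.66, adjusted p = 0.0412) for *hcm1-8E* minus WT and 3.40 (SE 0.65, adjusted p = 0.0255) for *hcm1-3N* minus *hcm1-8E*, and that of *FES1* was -0.93 (SE 0.19, adjusted p = 0.0116) and 1.21 (SE 0.19, adjusted p = 0.00208). These calls rest on 2 libraries a group, and replicate 2 of *hcm1-8E* in LiCl, which lay near its replicate 1 for *BTN2*, *FES1* and *SSA1*, is 1 of them.

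Between strains in control medium, *hcm1-3N* differed from WT for 5 of 35 members, 2 higher (4.23% of all genes) and 3 lower (3.45%). *HSP26*, a small heat shock protein, had 44.4, 107 and 108 CPM in *hcm1-3N*, against 11.6, 39.8 and 31.6 CPM in WT. All *hcm1-3N* libraries were above all WT libraries, a separation seen in 35.4% of all genes, and replicate 1 was lowest in both strains. *HSP26* was higher by 1.65 (SE 0.41, adjusted p = 0.0242) and *SSB2* by 0.35 (SE 0.082, adjusted p = 0.019), while *HSF1* (-0.45, SE 0.10, adjusted p = 0.0176), *YDJ1* (-0.38, SE 0.093, adjusted p = 0.0229) and *HCH1* (-0.35, SE 0.089, adjusted p = 0.0289) were lower. *HCH1* had 76.4, 71.3 and 76.2 CPM in *hcm1-3N*, against 99.1, 88.7 and 96.6 CPM in WT, and the libraries of all 5 genes were apart. Of 6 fits that each left out a library, *HSP26* passed in 2, *SSB2* in 3, *HSF1* in 3, *YDJ1* in 1 and *HCH1* in 0, with 0 members left without *hcm1-3N* control replicate 3. With the replicate block 9 of 35 passed (22.5% of all genes), adding *HSP12* (adjusted p = 0.00904), *SSA4* (0.00779), *SSB1* (0.0483) and *HSP60* (0.0408), all higher in *hcm1-3N*, and with replicates 2 and 3 alone 8 of 35 passed (17.8%).

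Between *hcm1-8E* and WT in control medium, 0 of 35 members passed by edgeR (0.0641% of all genes), beside 4 at an unadjusted p under 0.05 (12.5% of all genes) and 1 by DESeq2 (2.7%). The lowest p was that of *HSF1*, whose *hcm1-8E* libraries (45.1, 43.1 and 45.2 CPM) lay below the WT libraries (54.4, 70.1 and 58.7 CPM), a separation seen in 25.3% of all genes, at -0.46 (SE 0.10, adjusted p = 0.137, and 0.0387 with the replicate block, which called this member alone and 1.59% of all genes). It was also the 1 member called with replicates 2 and 3 alone (2.16% of all genes). When *hcm1-3N* was set against *hcm1-8E* without LiCl, 0 of 35 passed (0.0641% of all genes), beside 7 at an unadjusted p under 0.05 (12.8% of all genes) and 2 by DESeq2 (1.9%). *HSP12* had 57.5, 173 and 163 CPM in *hcm1-3N*, against 28.2, 43.2 and 35.6 CPM in *hcm1-8E*, with all *hcm1-3N* libraries higher, as groups were apart in 26.7% of all genes. Its difference was 1.88 (SE 0.44, adjusted p = 0.13, and 0.0218 with the block). The block called 3 of 35 there (3.73% of all genes), adding *HSP26* (1.39 and adjusted p = 0.189 without the block, 0.0219 with it) and *SSA4* (1.33 and adjusted p = 0.321 without the block, 0.0257 with it). From replicates 2 and 3 alone 5 of 35 passed (11.2%).

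In LiCl, *hcm1-3N* was higher than *hcm1-8E* for 2 of 35 members (1.11% of all genes) and lower for 0 (1.96%). *HSP26* had 53.4, 72.9 and 72.3 CPM in *hcm1-3N*, against 14.8, 14.4 and 19.2 CPM in *hcm1-8E*. *HSP12* had 206, 220 and 212 CPM in *hcm1-3N*, against 32.7, 55.9 and 92.1 CPM in *hcm1-8E*. For both genes every *hcm1-3N* library, replicate 1 included, was above every *hcm1-8E* library, as in 13.1% of all genes. *HSP26* was higher by 2.04 (SE 0.42, adjusted p = 0.0143), and not without replicate 2 of *hcm1-3N* (0.0529) or of *hcm1-8E* (0.0723). *HSP12* was higher by 1.82 (SE 0.44, adjusted p = 0.0375), and of 6 fits passed in the one without *hcm1-8E* replicate 3. In control medium *HSP12* was higher by 1.88 (SE 0.44, adjusted p = 0.13), and *HSP26* was also higher there without passing. The difference of the LiCl responses of the mutants passed for neither gene. The median over the members was 0.24, beside -0.03 over all genes, and 31 of 35 were positive, signs that are not independent. As log2 of CPM over each gene's mean in all libraries, the members' median was -0.49, 0.145 and 0.18 in *hcm1-3N* replicates 1, 2 and 3. In *hcm1-8E* that median was -0.454, -0.375 and -0.00802, so the strains differed most in replicate 2. With the block *SSA4* also passed, at adjusted p = 0.00444 (8.49% of all genes passed), and with replicates 2 and 3 alone 10 of 35 passed (13.9% of all genes).

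**Figure D5:**
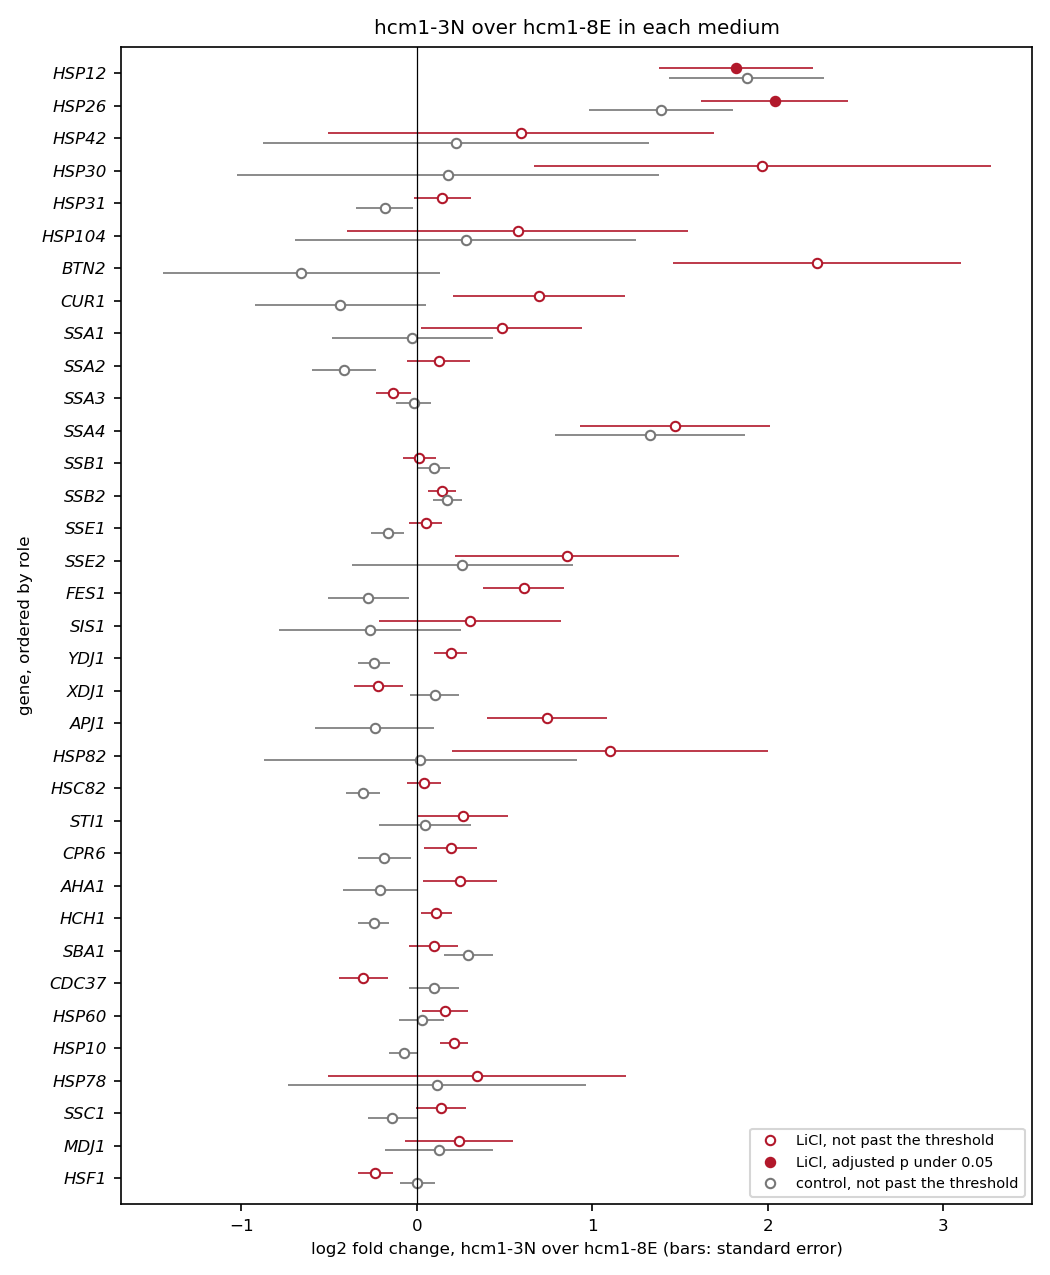
Log2 fold change of *hcm1-3N* over *hcm1-8E* (horizontal) for each member in LiCl (red) and in control medium (grey), with standard errors as bars. *HSP12* and *HSP26* in LiCl are the filled symbols, at 1.82 and 2.04, with an adjusted p under 0.05. Both genes also lie above 0 in control medium, with open symbols.

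Against WT in LiCl, 0 of 35 members passed in *hcm1-3N* (0.721% of all genes), beside 1 at an unadjusted p under 0.05 (8.62% of all genes) and 1 by DESeq2 (2.54%). *HSP26* had 53.4, 72.9 and 72.3 CPM in *hcm1-3N*, against 17.2, 30.2 and 31.7 CPM in WT, all higher (groups were apart in 11.2% of all genes), at 1.33 (SE 0.41, adjusted p = 0.184, and 0.0129 with the replicate block, which called 3.05% of all genes). It was the 1 member called with replicates 2 and 3 alone (1.88% of all genes). In *hcm1-8E* against WT in LiCl, 0 of 35 passed by edgeR (0.0321% of all genes) and 0 by DESeq2 (0.216%), beside 3 at an unadjusted p under 0.05 (5.05% of all genes) and 0 with the replicate block (0.305% of all genes). *HSP12* had 32.7, 55.9 and 92.1 CPM in *hcm1-8E*, against 92, 167 and 148 CPM in WT, with replicate 3 of *hcm1-8E* at the level of replicate 1 of WT, and differed by -1.17 (SE 0.43, adjusted p = 0.848). The median over the members was -0.17, beside 0.02 over all genes, and 30 of 35 were negative, signs that are not independent. As log2 of CPM over each gene's mean in all libraries, the members' median was -0.454, -0.375 and -0.00802 in *hcm1-8E* replicates 1, 2 and 3. In WT that median was -0.562, 0.118 and 0.0752, so the strains differed most in replicate 2. Over replicates 2 and 3 alone 5 of 35 passed (2.39% of all genes), all lower in *hcm1-8E*: *HSP26*, *CUR1*, *SSE2*, *FES1* and *APJ1*.

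Levels were compared between genes per length, in TPM. *SSB1* averaged 1640 ± 38, 1750 ± 200 and 1710 ± 90.4 TPM in *hcm1-3N*, *hcm1-8E* and WT in LiCl, and 1580 ± 51.2, 1480 ± 39.8 and 1360 ± 106 TPM in control medium (SD, n = 3 each). *HSC82* averaged 306 ± 17.3, 321 ± 21.9 and 322 ± 38.1 TPM in LiCl, and 294 ± 26.2, 366 ± 20.4 and 326 ± 29.6 TPM in control medium, above *HSP82* at 89.2 ± 67.7, 46.2 ± 43.3 and 82.8 ± 62.5 TPM in LiCl and 59.4 ± 20.8, 59.2 ± 20.8 and 48.5 ± 18.1 TPM in control medium. The order of *SSA1* and *SSA2* depended on the library. In replicate 1 in LiCl *SSA1* had 141, 122 and 112 TPM in *hcm1-3N*, *hcm1-8E* and WT, below *SSA2* at 308, 424 and 308 TPM, and in replicate 2 in control medium it had 510, 481 and 480 TPM, beside *SSA2* at 398, 542 and 435 TPM, so that *SSA1* was the higher one there in *hcm1-3N* and WT and the lower one in *hcm1-8E*. Coding sequences are alike within these pairs: *SSA1* and *SSA2* at 96.4% over 1931 bases, *SSB1* and *SSB2* at 97.5% over 1843 bases, and *HSP82* and *HSC82* at 91.8% over 2132 bases. Fragments that map to both genes of a pair can miss the required mapping quality above 20 and then count for neither gene. The separate values of these genes, and their TPM per full length, are uncertain to that extent. No gene of the RefSeq R64 annotation overlaps a member; the annotation used for counting lists more genes and was not checked.

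Chaperones outside the members moved in both directions in LiCl. Of 40 such genes, 5 rose and 1 fell in *hcm1-3N*, 13 rose and 4 fell in *hcm1-8E*, and 12 rose and 10 fell in WT, beside the shares of all genes given for each strain above. The total of 6 in *hcm1-3N* (10.3% of all genes) was 17 with the replicate block (38.1%). It ranged from 1 (without LiCl replicate 1 or control replicate 2) to 10 (without LiCl replicate 3) when a library was left out. *GIM4*, a prefoldin subunit, had 58.9 to 62.3 CPM in *hcm1-3N*, 56.9 to 62.9 CPM in *hcm1-8E* and 56.6 to 60.8 CPM in WT in LiCl, against 42.2 to 42.8, 33.8 to 38.8 and 32.4 to 35.9 CPM in control medium. It rose by 0.52, 0.74 and 0.80 in *hcm1-3N*, *hcm1-8E* and WT, with adjusted p = 0.00159, 2.36e-05 and 2.28e-05. *SWA2*, a J protein that uncoats clathrin vesicles, fell by 0.45, 0.59 and 0.79 on the log2 scale, with adjusted p = 0.0143, 0.000966 and 0.000109. The 15 general stress genes had median fold changes of -1.2, -0.89 and -0.80 in *hcm1-3N*, *hcm1-8E* and WT, and their lowest adjusted p was 0.216 (*TPS1*) in *hcm1-3N*, 0.134 (*GRE3*) in *hcm1-8E* and 0.227 (*TPS1*) in WT.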

How the data were processed

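Polyadenylated RNA was sequenced from 3 replicate cultures in each of 6 groups. Per the study's methods, paired reads were aligned to yeast genome R64 by the authors and fragments on exons with a mapping quality above 20 were counted with featureCounts; the aligner's name and the use of strand are not given in the sources used here. The deposited count table holds unnormalised counts for 7126 genes. The deposited TPM table, for 6754 genes, is scaled for gene length and library total by the authors, and was used to compare levels between genes, not for tests.

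Counts were fitted with edgeR 4.0.16 in R 4.3.3: TMM factors, filterByExpr by group (6239 genes left), robust quasi-likelihood fits of 6 group means, and contrasts for LiCl over control, for strains within a medium and for the difference of LiCl responses. P-values were adjusted by Benjamini-Hochberg over all 6239 genes, with a threshold of 0.05. The standard error is the absolute log2 fold change over the square root of F. The fit was run on simulated counts with changes in WT in LiCl alone and no replicate effect, so that run says nothing on the shift of replicate 1. Alternatives were RLE size factors, total counts, no filter, DESeq2 1.42.0, a replicate block, leaving out each library in turn, and replicates 2 and 3 only, the last chosen after seeing the data.

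Samples with the same replicate number in their titles deviated together in each of 9 comparisons, with correlations of 0.237 to 0.89 for every pair. The main fit treats the samples as unpaired, so its p-values and standard errors leave this out. The replicate block is the alternative that takes the replicate number as a term. No source used here says that same-numbered samples were grown together.

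The 35 members, the other lists and the tests were chosen with earlier results of these data known. All 35 members are named. Values per library are given for *HSF1*, the *SSA1*, *SSB1* and *HSP82* pairs, up to 12 members by size of change that passed in LiCl in at least 1 strain, and up to 5 members that passed in each strain comparison or interaction, or else the one with the lowest p. Promoter sequence was read from the RefSeq R64 genome, and coding sequences were compared with blastn 2.17.0. Library totals, 18816441 to 21851012 counts, limit the precision of low genes, and no pair of replicates agreed within sampling noise (chi-square per gene 10.3 to 276).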

Additional observations from a re-analysis of the deposited data

Results flagged for a closer look

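*YDJ1* was higher in LiCl in all 3 same-numbered pairs in *hcm1-3N* (0.0945 to 0.242 on the log2 scale) and lower in all 3 pairs of each other strain (-0.402 to -0.0629 in *hcm1-8E*, -0.266 to -0.00361 in WT). The difference of the responses was 0.332 for *hcm1-3N* minus WT (SE 0.13, adjusted p = 0.331 by edgeR, and 0.188 with the replicate block), and 0.436 for *hcm1-3N* minus *hcm1-8E* (SE 0.13, adjusted p = 0.361, and 0.131 with the block). *HSF1* was higher in LiCl in all 3 pairs in *hcm1-8E* (0.0564 to 0.284) and lower in all 3 in WT (-0.586 to -0.211), a difference of 0.529 for *hcm1-8E* minus WT (SE 0.15, adjusted p = 0.3, and 0.0861 with the block). None of these 3 differences passed by edgeR over 3 replicates. With replicates 2 and 3 alone, *YDJ1* for *hcm1-3N* minus *hcm1-8E* (0.584, adjusted p = 0.0319) and *HSF1* (0.617, adjusted p = 0.0424) passed, and *HSF1* also passed by DESeq2 (0.0359).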

How the results depend on the processing

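Counts of members called moved with the replicate block and with replicates 2 and 3 alone more than with scaling or filter. So did the shares of all genes, which the Results give for the counts with the block and with replicates 2 and 3 alone. For LiCl over control in *hcm1-3N*, 10.3% of all genes passed in either direction in the main fit. The share was 38.1% with the block and 31.2% with replicates 2 and 3 alone. With the replicate block, 4 members fell in LiCl in *hcm1-3N*, 12 in *hcm1-8E* and 6 in WT, and 9 passed for *hcm1-3N* over WT in control medium, 1 for *hcm1-8E* over WT and 3 between the mutants there, and 1 for *hcm1-3N* over WT in LiCl. With replicates 2 and 3 alone, 6 rose and 4 fell in *hcm1-3N*, 3 rose and 13 fell in *hcm1-8E*, and 9 rose in WT. In that fit 8, 1 and 5 members passed between strains in control medium (*hcm1-3N* over WT, *hcm1-8E* over WT, *hcm1-3N* over *hcm1-8E*), 1, 5 and 10 in LiCl in the same order, and 8 in each interaction with *hcm1-8E*. DESeq2 called 8, 1 and 2 in control medium (13.7%, 2.7% and 1.9% of genes), 1 for *hcm1-3N* over WT in LiCl (2.54%), and 1 for the response of *hcm1-8E* minus WT (2.8%). The rise in *hcm1-3N* was 1 member with RLE and 0 without a filter. That in *hcm1-8E* was 2 with total counts and 0 without a filter. The shares of all genes with these settings are not given. The causes were not tested.

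Leaving out each library in turn gave 0 to 1 members up and 0 to 2 down in *hcm1-3N*, 0 to 1 up and 4 to 7 down in *hcm1-8E*, 2 to 5 up and 1 to 3 down in WT, 0 to 3 for *hcm1-3N* over WT in control medium and 0 to 2 between the mutants in LiCl. The shares of all genes in these fits are not given. The counts therefore cannot tell a loss among the members from a loss over all genes.

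Changes of direction in LiCl fell on values that were not called in the strain concerned. With replicates 2 and 3 alone, *SSA2* (0.0617) and *HSP78* (0.0877) in *hcm1-3N*, *SSB1* (-0.0217) and *SSB2* (-0.0662) in *hcm1-8E* and *HSP104* (0.0529) in WT turned, as did *XDJ1* (0.0157) and *HSP10* (-0.00318) in *hcm1-3N* and *STI1* (0.000948) in *hcm1-8E*. *CDC37* in *hcm1-3N* was at -0.00106 without a filter, *HSP31* in *hcm1-8E* at 0.0592 with total counts (which also turned *XDJ1* in *hcm1-3N* and *SSA3*, *STI1* and *HCH1* in *hcm1-8E*), *CUR1* in WT at -0.0226 with the replicate block, and *HSP78* in WT at -0.0201 without a filter and -0.371 with the replicate block. With a library left out, ranges that cross 0 in *hcm1-3N* included -0.0936 to 0.0737 (*CDC37*), -0.875 to 0.109 (*HSP104*), -0.988 to 0.0276 (*HSP42*), -0.629 to 0.297 (*HSP78*), -0.515 to 0.0922 (*SIS1*), -0.00628 to 0.0899 (*SSB1*) and -0.05 to 0.0665 (*SSB2*). In *hcm1-8E* they included -0.179 to 0.0336 (*HSP31*), -1.43 to 0.0293 (*HSP78*), -0.00459 to 0.2 (*SSB1*) and -0.0505 to 0.0818 (*SSB2*). In WT they included -0.144 to 0.086 (*CDC37*), -0.543 to 0.357 (*HSP104*), -0.465 to 0.266 (*HSP26*), -0.95 to 0.0944 (*HSP42*) and -0.338 to 0.521 (*HSP78*). Ranges also crossed 0 for *STI1* in all 3 strains, *XDJ1* in *hcm1-3N*, *SSA3*, *HCH1* and *MDJ1* in *hcm1-8E*, and *CUR1*, *SSA4*, *HSC82* and *HSP10* in WT.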
